A study of Homo sapiens with 6 samples.

Results

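The 51 genes described here lie on the long arm of human chromosome 15, bands q24 to q25, from CD276 to AKAP13, and were listed because most of them had higher transcript levels in the fludarabine-resistant pool numbered 28 than in its control. All 51 were found among the 23619 gene symbols of the deposited tables, and 49 reached the minimum used for testing, which was 1 FPKM or more in 3 or more of the 6 libraries. FPKM counts sequenced fragments per transcript, scaled for its length and for library size. PSTPIP1, an adaptor of the actin skeleton in blood cells, and DNAJA4, a co-chaperone, did not reach that minimum, with maxima of 0.877 and 0.216 FPKM. The genes were chosen by the measured difference in FPKM between resistant 28 and control 28, so that difference is given here as a description with no test.

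The libraries came from HG3, a lymphoblastoid cell line established from chronic lymphocytic leukaemia B cells, in a study that used transposon mutagenesis to look for mechanisms of fludarabine resistance. Fludarabine is a purine nucleoside analogue used against this leukaemia. There were 3 fludarabine-resistant pools and 3 control pools, numbered 17, 18 and 28 in both groups, with 1 library of total RNA each. The sample titles call every resistant library treated and every other library control, so drug treatment and resistance cannot be told apart. The design text calls the pools pairs and the controls parental cells, and the comparison asks whether resistance came with a different transcriptome. The labels give no drug dose, no length of selection and no insertion site, and they do not say whether control pools carried the transposon. Each library is a pool of cells of 1 line, so a higher level in some cells and in all cells cannot be told apart.

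Bands 15q24 and q25 are a gene-rich stretch of housekeeping and tissue-restricted genes whose products have little in common beyond their address. They include the lysosomal protease cathepsin H, the signal peptidase subunit SEC11A, the iron regulator IREB2, the corepressor scaffold SIN3A and the kinase CSK, which restrains the SRC-family kinases that act below the B cell receptor. BCL2A1, a survival gene of the BCL2 family, lies within the stretch but is not among the 51.

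Relative depths, read from the steps of low FPKM values, were 1.04, 1.08 and 1.32 in resistant 17, 18 and 28. In control 17, 18 and 28 they were 1, 1.02 and 1.24, so both libraries of pool 28 were deeper than the others. All 8 B cell markers examined reached 1 FPKM in every library, and they summed to 2029 to 2947 FPKM in resistant libraries and 2124 to 2633 FPKM in control libraries. No T cell, erythroid or fibroblast marker reached 1 FPKM in any library. Of the 11 myeloid, natural killer cell and epithelial markers, 4 did so in at least 1 library, namely CSF1R (up to 1.97 FPKM in resistant and 1.09 in control libraries), NKG7 (up to 1.30 and 1.22), KRT18 (up to 1.64 and 5.09) and CDH1 (up to 6.76 and 2.77), while EPCAM, an epithelial surface marker, was at 0 in all 6. The epithelial markers summed to 4.54 to 6.93 FPKM in resistant and 4.18 to 7.35 FPKM in control libraries, the myeloid markers to 0.784 to 2.17 and 0.626 to 1.45 FPKM, and the natural killer cell markers to 0.275 to 1.62 and 0.642 to 1.28 FPKM. Values of 3 libraries are given in the order of pools 17, 18 and 28, and differences are resistant minus control on the scale of log2(FPKM + 1).

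In pool 28 most members, 40 of 49, were higher in resistant than in control cells, where 49.3% of all tested genes were. The median difference of the 49 members was 0.52 (quartiles 0.10 and 0.84), which is a ratio of 1.43 of FPKM + 1, and the median of all 11307 tested genes was -0.01. In the same members the median was -0.04 in pool 17 and 0.05 in pool 18, against medians of -0.03 and 0.05 over all tested genes. In pools 17 and 18, 23 and 25 members were above 0, where 47.2% and 53.4% of all tested genes were. A difference over 0.5 was seen in 26 members in pool 28, where 15.7% of all tested genes had one. The same count was 4 members in pool 17 and 7 in pool 18, where 9.94% and 21.3% of all tested genes passed that mark. Below -0.5 lay 3 members in pool 17 (9.3% of all tested genes), 8 in pool 18 (19.7%) and 2 in pool 28 (15.8%). The members just inside the mark of 0.5 in pool 28 were WDR73 (0.52) and ETFA (0.51), and those just outside were MAN2C1 (0.49) and CLK3 (0.48). The shift was moderate for most members. It lay over 1 in 5 members (4.06% of all tested genes) and between 0.3 and 1 in 27. It was below 0 in 9, where 5725 of 11307 tested genes were. The share of all tested genes between 0.3 and 1 was not computed, so the count of 27 stands without a comparison.

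**Figure D1:**
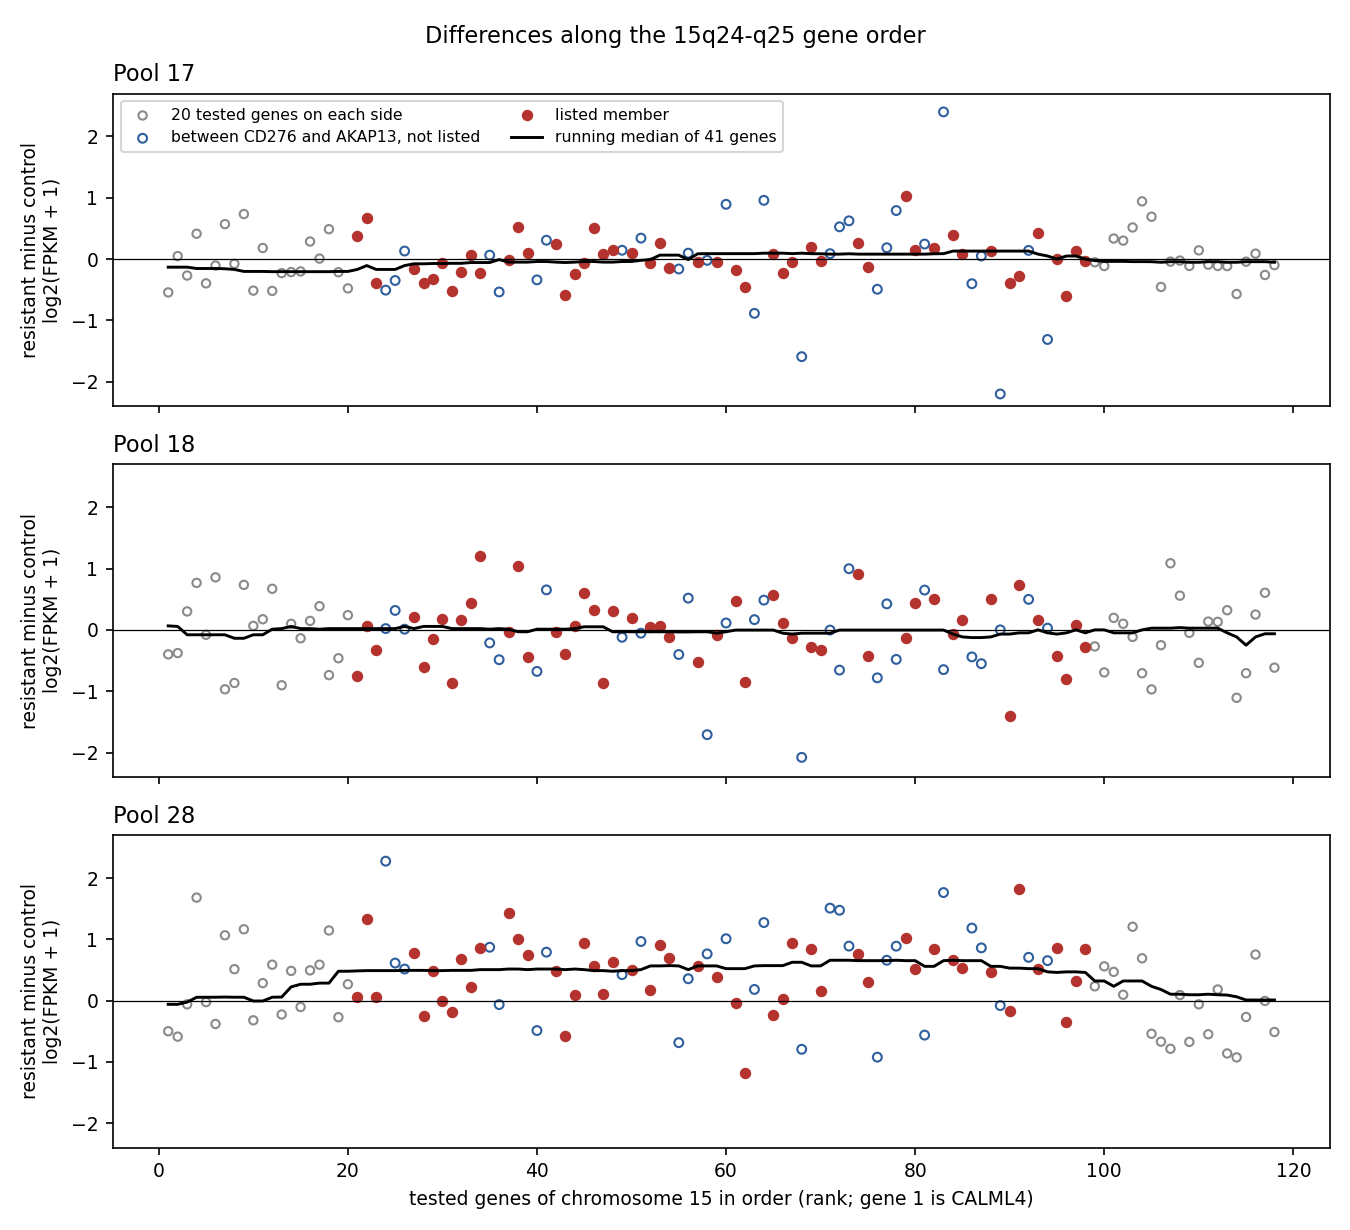
Differences between resistant and control libraries on the log2(FPKM + 1) scale (vertical axis) for tested genes of chromosome 15 in RefSeq order (horizontal axis), 1 panel per pool. Filled points are the 49 tested members, open blue points are the 29 other tested genes between CD276 and AKAP13, open grey points are 20 genes on each side, and the line is the running median of 41 genes. The line stays near 0 in pools 17 and 18, and reaches 0.66 within the stretch in pool 28.

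The plot of differences along the gene order shows the members of pool 28 scattered mostly above 0, and the points of pools 17 and 18 on both sides of 0. Dividing the 78 tested genes of the stretch, listed or not, into 6 consecutive blocks of 13 gave pool 28 medians of 0.48, 0.74, 0.51, 0.18, 0.66 and 0.65 in gene order. The lowest block ran from ACSBG1 to C15orf37 and was mixed, with 6 of its 13 genes over 0.5, as many as in the first block. Among its 7 members, CTSH (0.95) and TMED3 (0.85) were over 0.5, MTHFS (0.16), MORF4L1 (0.02) and WDR61 (-0.03) were closer to 0, and CHRNA5 (-0.24) and IREB2 (-1.18) were lower in resistant 28. Of its unlisted genes, ACSBG1 (1.01), PSMA4 (1.27), ST20 (1.51) and C15orf37 (1.47) were over 1. The other 5 block medians lay between 0.48 and 0.74.

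Library by library, resistant 28 was the library that stood apart over these genes. Relative to the mean of the 3 controls on the log2 scale, the median of the members was -0.01 in resistant 17, 0.09 in resistant 18 and 0.46 in resistant 28, and -0.05, 0.06 and -0.01 in control 17, 18 and 28. The medians of the 3 controls had an SD of 0.0571. Resistant 28 also exceeded the other resistant libraries, by a median of 0.48 over resistant 17 and 0.40 over resistant 18, whereas resistant 18 exceeded resistant 17 by 0.06. Between controls, the median of control 28 minus control 17 was 0.02, that of control 28 minus control 18 was -0.04 and that of control 18 minus control 17 was 0.11. Resistant 28 was the highest of the 6 libraries in 27 of 49 members, where this held for 12.9% of all tested genes. It was above all 3 controls in 37 of 49, where this held for 30.1% of all tested genes.

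**Figure D2:**
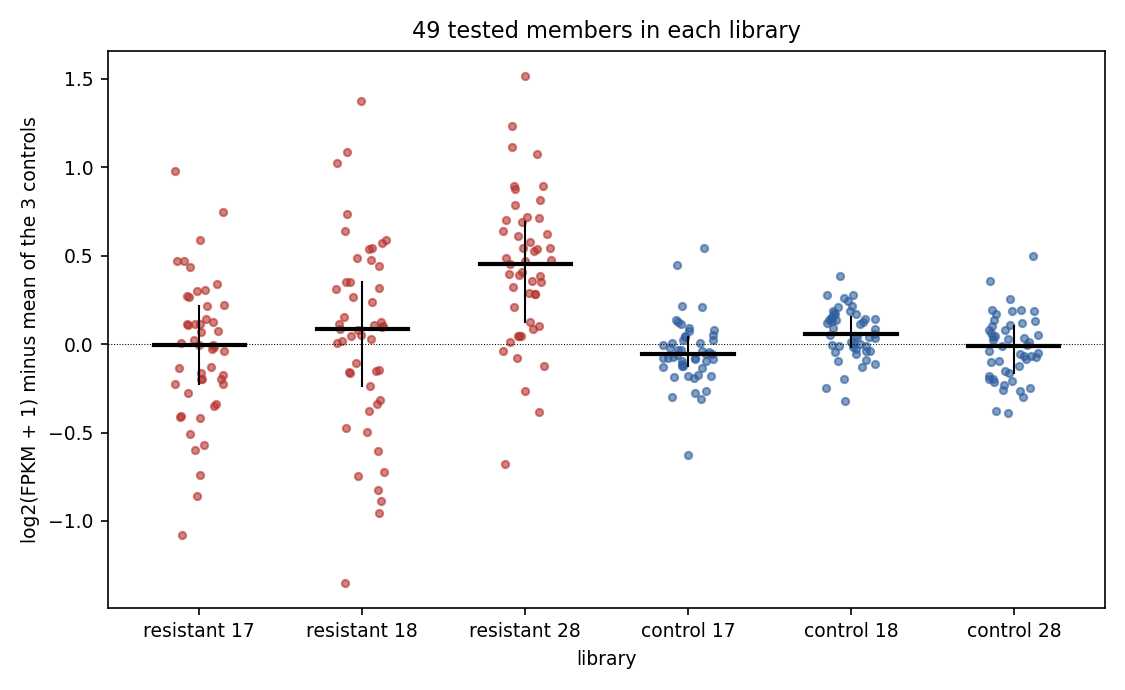
Level of each of the 49 tested members in each library on the log2(FPKM + 1) scale, minus the mean of the 3 controls for that gene. Points are genes, thick bars are medians and thin bars run between the quartiles, with resistant libraries in red and control libraries in blue. The median of resistant 28 is 0.46, and those of the other 5 libraries lie between -0.05 and 0.09.

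The listed members were not alone in the stretch. The 29 other tested genes between CD276 and AKAP13 had a pool 28 median of 0.71. Of these, 19 were over 0.5, where 15.7% of all tested genes were. The stretch itself was listed for its pool 28 values, so these values are descriptions and not separate support. Their medians were 0.09 in pool 17 and -0.00 in pool 18. The 20 tested genes just before CD276 had a pool 28 median of 0.28, the 20 just after AKAP13 one of -0.03, and the 308 tested genes of chromosome 15 outside the stretch one of -0.12.

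Differences in pool 28 depended on transcript length across all genes, with medians of 0.16 in genes with transcripts up to 2479 bases and -0.20 in those over 4367 bases. Length and GC content are those of the longest annotated protein-coding transcript of a gene, which need not be the one expressed here. Over the same length classes the member medians were 0.54 in 14 short, 0.42 in 14 middle and 0.53 in 21 long members. With trends of GC content and transcript length removed, the member medians were 0.01 in pool 17, -0.06 in pool 18 and 0.55 in pool 28. Again, 26 members were over 0.5 in pool 28, where 13.6% of 10399 genes passed that mark, and in pools 17 and 18 the count was 6 (7.94%) and 5 (19.5%). The pool 28 medians were then 0.43 in short, 0.44 in middle and 0.78 in long members. With these trends removed, the 19 genes before CD276 with a length value had a median of 0.40. The 20 after AKAP13 had -0.01, and 265 genes of the rest of chromosome 15 had 0.03.

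Across the genome, the stretch held the highest running median of pool 28. It was listed for its pool 28 differences, so this rank follows from the choice and is a description. Of 10139 windows of 41 genes in the values as deposited, 130 (1.28%) had a median of at least 0.3, of which 85 were on chromosome 15 and the others on 5 other chromosomes, 30 of them on chromosome 19, where the highest had 0.36. The highest on chromosome 15 had 0.66. With windows of 21 genes, 390 of 10599 reached 0.3, 97 of them on chromosome 15. Of 9449 windows of 41 genes with trends removed, a setting chosen after seeing the data, 86 (0.910%) had a median of at least 0.3, and 84 of these were on chromosome 15, centred on genes from ADPGK to MFGE8. The other 2 were on chromosome 4, where the highest window had a median of 0.31. The highest window with trends removed had a median of 0.70, was centred on CHRNA5 and ran from SNUPN to C15orf40. In pool 17 no window of 41 genes reached 0.3 in either set of values. In pool 18, 819 windows did as deposited, 6 of them on chromosome 15 and 0 centred within the stretch, and 427 with trends removed, 0 of them on chromosome 15. With trends removed the lowest windows of pool 28 lay on chromosome 4 (-0.77) and chromosome 6 (-0.44). As deposited, chromosomes 4 and 6 had -0.82 and -0.43. The lowest window (-0.86) lay on chromosome 15 itself, outside the stretch, in a run of small nucleolar RNA genes of near-identical copies. With trends removed, which leaves out genes without a length value, the lowest window of chromosome 15 had -0.19. The stretch was thus not the only long region with a median far from 0 between resistant 28 and control 28. Windows against the other libraries were not computed.

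The largest pool 28 differences belonged to ZSCAN2, RPP25 and STOML1, and the lowest to IREB2, SIN3A and ZNF592. The 250 bases before the annotated start are printed for the 2 genes of largest difference, for CTSH, the member of highest level, and for IREB2, the member of lowest difference, to show what kind of promoter lay at both ends of the range. The sequences are from RefSeq on GRCh38.p14, 5′ to 3′ on the gene's strand, and capitals mark the letters of a GC box (GGGCGG), of the CCAAT box or of an NRF1 motif (GCGCATG) on either strand. They lie at chr15:84600759-84601008 (plus strand) for ZSCAN2, chr15:74956773-74957022 (minus strand) for RPP25, chr15:78945047-78945296 (minus strand) for CTSH and chr15:78437966-78438215 (plus strand) for IREB2.
ZSCAN2: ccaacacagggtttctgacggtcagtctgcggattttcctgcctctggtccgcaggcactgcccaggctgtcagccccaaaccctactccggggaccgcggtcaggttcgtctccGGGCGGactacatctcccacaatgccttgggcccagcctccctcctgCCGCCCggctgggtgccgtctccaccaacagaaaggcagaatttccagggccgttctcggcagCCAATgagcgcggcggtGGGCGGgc
RPP25: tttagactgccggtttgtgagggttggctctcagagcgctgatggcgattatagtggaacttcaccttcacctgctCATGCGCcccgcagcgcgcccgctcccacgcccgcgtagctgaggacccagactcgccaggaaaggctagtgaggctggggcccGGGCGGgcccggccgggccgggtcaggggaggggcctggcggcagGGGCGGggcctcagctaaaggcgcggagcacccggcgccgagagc
CTSH: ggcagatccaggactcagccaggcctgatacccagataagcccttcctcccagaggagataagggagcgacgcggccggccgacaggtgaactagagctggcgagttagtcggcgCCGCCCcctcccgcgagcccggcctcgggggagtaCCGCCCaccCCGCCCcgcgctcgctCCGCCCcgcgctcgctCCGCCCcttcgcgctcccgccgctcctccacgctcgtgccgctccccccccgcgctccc
IREB2: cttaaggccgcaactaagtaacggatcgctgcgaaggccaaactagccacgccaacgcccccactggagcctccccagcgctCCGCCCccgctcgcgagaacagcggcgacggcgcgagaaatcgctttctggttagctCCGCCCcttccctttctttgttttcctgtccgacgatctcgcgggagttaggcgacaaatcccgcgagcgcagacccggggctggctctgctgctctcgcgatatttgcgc
All 4 are rich in G and C (66.0%, 70.4%, 74.4% and 63.2% in the order printed), and each holds at least 1 GC box. A RefSeq promoter was matched for 45 of 51 members. Their median GC content was 69.2%, against 64.8% for 8818 tested genes and 58.0% for all 27305 promoters of the same length. A GC box was found in 32 of 45 members (71.1%), 67.3% of tested genes and 42.3% of all promoters. The CCAAT box was found in 13 members (28.9%, against 36.3% of tested genes and 33.0% of all promoters). An ETS site (CCGGAAG) was found in 9 (20%, against 17.8% and 8.82%). A TATA box (TATAAA) was found in 3 (6.67%, against 5.35% and 11.1%), and an NRF1 motif in 2 (4.44%, against 7.14% and 3.96%). A YY1 core (AAGATGG) was found in 0 of 45, against 3.75% of tested genes and 3.77% of all promoters. Both strands were searched, no motif contains another, and neighbouring matches may share bases.

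Members of membrane traffic and the lysosome had the highest median of the role groups in pool 28. Of 13 tested, 12 were above 0 and 9 over 0.5, with a median of 0.66, against 0.09 in pool 17 and -0.07 in pool 18. For this and every other role group, the pool 28 shares of all tested genes were 49.3% above 0 and 15.7% over 0.5. Protein turnover and the remaining genes, with 5 tested, had a close median of 0.63. The members were listed for their pool 28 values, so the counts and the order of role groups are descriptions. CTSH, which encodes cathepsin H, a lysosomal cysteine protease that trims proteins from their amino end, had 435, 487 and 877 FPKM in the resistant libraries, against 451, 532 and 454 FPKM in the control libraries. Resistant 28 was the highest library, and the other 5 lay within 435 to 532 FPKM, so the groups overlapped. The pool 28 level was 1.93-fold that of its control, and the log2 differences were -0.05 in pool 17, -0.13 in pool 18 and 0.95 in pool 28. TMED3, a cargo receptor between endoplasmic reticulum and Golgi, had 135, 109 and 212 FPKM in the resistant libraries, against 117, 133 and 117 FPKM in the control libraries. SEC11A, a catalytic subunit of the complex that cuts signal peptides, had 85, 70 and 111 FPKM in the resistant libraries, against 85, 94.5 and 60.3 FPKM in the control libraries. In both genes resistant 28 was again the highest of the 6, resistant 18 lay below control 18, and the groups overlapped.

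STOML1, a stomatin-like protein of late endosomes, had 9.74, 6.57 and 12.5 FPKM in the resistant libraries, against 5.74, 6.28 and 4.35 FPKM in the control libraries. All 3 resistant libraries were above all 3 controls, although in pool 18 the gap was small (log2 difference 0.06). SCAMP5, a carrier membrane protein of the secretory route, had 1.21, 2.33 and 2.54 FPKM in the resistant libraries, against 0.532, 0.626 and 0.758 FPKM in the control libraries. It was low in every library, yet the resistant libraries were all above the controls, and the log2 differences were 0.53 in pool 17, 1.04 in pool 18 and 1.01 in pool 28. TM6SF1, a lysosomal membrane protein, had 3.18, 1.44 and 5.06 FPKM in the resistant libraries, against 4.45, 5.48 and 5.81 FPKM in the control libraries. It was the 1 member of this group that was lower in resistant 28 than in control 28 (log2 difference -0.17), and it was lower in the other pools too, by most in pool 18 (-1.41). Of the others, the calcium-binding protein gene RCN2 (0.90), the actin nucleation factor gene WHAMM (0.66), the Rab regulator gene TBC1D2B (0.57) and the lipid transfer gene STARD5 (0.52) were over 0.5 in pool 28. The secretory carrier gene SCAMP2 (0.22), the endoplasmic reticulum gene SCAPER (0.18) and the sorting nexin gene SNX33 (0.11) were above 0 but under that mark. WHAMM and UBE2Q2 have near-identical pseudogene copies on the same chromosome, so their levels are uncertain where reads were shared.

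Genes of RNA processing divided into higher and even members. Of 7 tested, 5 were above 0 in pool 28 and 4 over 0.5, with a median of 0.57. RPP25, a protein subunit of RNase P and RNase MRP, had 7.21, 11 and 21.1 FPKM in the resistant libraries, against 7.26, 11.3 and 7.19 FPKM in the control libraries. Resistant 28 stood apart at 2.94-fold its control, and in pools 17 and 18 resistant and control libraries were nearly equal (log2 differences -0.01 and -0.03). IMP3, a component of the U3 snoRNP that matures 18S ribosomal RNA, had 78.7, 82.3 and 74.3 FPKM in the resistant libraries, against 55.1, 65.6 and 49.7 FPKM in the control libraries. Here every resistant library exceeded every control, with log2 differences of 0.51 in pool 17, 0.32 in pool 18 and 0.57 in pool 28. CLK3, a kinase of splicing factors, had 41.8, 27.4 and 49.5 FPKM in the resistant libraries, against 52.9, 30.5 and 35.2 FPKM in the control libraries. Its levels overlapped between the groups, and its difference in pool 28 was 0.48 as deposited and 0.83 with GC and length trends removed. WDR61, a WD-repeat subunit of the PAF1 and SKI complexes, had 71.4, 121 and 89.7 FPKM in the resistant libraries, against 81.2, 87.5 and 91.8 FPKM in the control libraries. Resistant 18 was its highest library, and in pool 28 the 2 libraries were nearly equal (-0.03). SNUPN, an import adaptor for spliceosomal snRNPs, and CPEB1, which binds polyadenylation elements of mRNAs, differed by 0.94 and 0.84 in pool 28, and the decapping enhancer gene EDC3 by -0.01.

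Metabolic members were mostly higher in pool 28 and included the member of lowest difference. Of 8 tested, 7 were above 0 and 3 over 0.5, with a median of 0.43, against -0.04 in pool 17 and -0.21 in pool 18. ETFA, the alpha subunit of the electron transfer flavoprotein that carries electrons from mitochondrial dehydrogenases, had 196, 202 and 266 FPKM in the resistant libraries, against 183, 177 and 187 FPKM in the control libraries. Each resistant library exceeded each control, narrowly so for resistant 17 and 18. IDH3A, the catalytic subunit of the NAD-dependent isocitrate dehydrogenase of the citric acid cycle, had 33.2, 37.5 and 49.9 FPKM in the resistant libraries, against 34.1, 39.9 and 38.2 FPKM in the control libraries. PPCDC, an enzyme of coenzyme A synthesis, had 28.2, 24.1 and 45.1 FPKM in the resistant libraries, against 26.4, 33.1 and 26.6 FPKM in the control libraries. For both genes resistant 28 was the highest library and the other resistant libraries lay within or below the controls.

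IREB2, the iron regulatory protein that binds iron-responsive elements of mRNAs, went the other way. It had 2.41, 3.37 and 3.52 FPKM in the resistant libraries, against 3.67, 6.89 and 9.21 FPKM in the control libraries. All 3 resistant libraries were below all 3 controls, and the log2 differences were -0.45 in pool 17, -0.85 in pool 18 and -1.18 in pool 28, so it was lowest against its control in the pool where most of its neighbours were higher. Its controls were spread too, with control 28 at 9.21 and control 17 at 3.67 FPKM. With GC and length trends removed the pool 28 difference was -0.97. Among the others, the mannose enzyme gene MPI differed by 0.87 in pool 28 and by 1.20 in pool 18. MAN2C1, a cytosolic mannosidase gene, FAH, the last enzyme of tyrosine breakdown, and MTHFS, a folate enzyme, differed by 0.49, 0.31 and 0.16 in pool 28.

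Genes of chromatin and transcription were the role group whose pool 28 median lay below 0. Of 6 tested, 3 were above 0 and 1 over 0.5, with medians of -0.39 in pool 17, -0.37 in pool 18 and -0.11 in pool 28. An exception was ZSCAN2, a zinc finger gene, which had the largest pool 28 difference of all members and 14.8, 17.4 and 36.5 FPKM in the resistant libraries, against 18.1, 10.1 and 9.68 FPKM in the control libraries. Resistant 28 stood apart at 3.77-fold its control, resistant 18 was higher than control 18, and resistant 17 was lower than control 17, so the groups overlapped. SIN3A, the scaffold that holds histone deacetylases at repressed genes, had 4.61, 7.18 and 6.79 FPKM in the resistant libraries, against 7.41, 9.8 and 10.6 FPKM in the control libraries. Every resistant library was below every control, with log2 differences of -0.58 in pool 17, -0.40 in pool 18 and -0.57 in pool 28. ZNF592, another zinc finger gene, had 1.5, 1.48 and 2.48 FPKM in the resistant libraries, against 2.79, 3.33 and 3.41 FPKM in the control libraries. It too was lower in every resistant library than in any control, and its log2 differences were -0.60 in pool 17, -0.80 in pool 18 and -0.35 in pool 28. With GC and length trends removed, the pool 28 difference was -0.35 for SIN3A and -0.09 for ZNF592. PML, which builds nuclear bodies, had 7.96, 8.36 and 11.6 FPKM in the resistant libraries, against 10.7, 10.8 and 11.1 FPKM in the control libraries. MORF4L1, a chromodomain subunit of histone acetylase and deacetylase complexes, had 87.2, 125 and 135 FPKM in the resistant libraries, against 103, 116 and 133 FPKM in the control libraries. Both genes were near equality in pool 28 (0.06 and 0.02), and their groups overlapped. The DNA-binding gene ARID3B was lower in all 3 pools (-0.39 in pool 17, -0.61 in pool 18 and -0.24 in pool 28), with overlapping groups.

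Signalling members had a median of 0.43 in pool 28, with 5 of 6 tested above 0 and 3 over 0.5. AKAP13, an anchor of protein kinase A that also activates RHOA and is the last member in gene order, had 31.6, 24.1 and 59.5 FPKM in the resistant libraries, against 32.5, 29.5 and 32.8 FPKM in the control libraries. Resistant 28 was 1.82-fold its control and the highest library, while resistant 17 and 18 lay within or below the controls. ULK3, a serine-threonine kinase, had 20.5, 26 and 39.6 FPKM in the resistant libraries, against 23.8, 23.1 and 24.3 FPKM in the control libraries, and resistant 28 was again the highest library, with resistant 17 below the controls. CSK, the kinase that phosphorylates the inhibitory tyrosine of SRC-family kinases, had 82.3, 67.1 and 118 FPKM in the resistant libraries, against 118, 123 and 135 FPKM in the control libraries. All 3 resistant libraries were below all 3 controls, resistant 28 only just below control 17, and the difference was smallest in pool 28 (log2 differences -0.52 in pool 17, -0.86 in pool 18 and -0.19 in pool 28). HOMER2, a scaffold of receptor complexes, PDE8A, a cAMP phosphodiesterase, and PTPN9, a tyrosine phosphatase, differed by 0.53, 0.32 and 0.10 in pool 28.

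Surface and secreted proteins gave 4 tested members, of which 3 were above 0 in pool 28 and 2 over 0.5. IL16, the precursor of a cytokine that attracts CD4+ cells, had 25.4, 13.5 and 22.6 FPKM in the resistant libraries, against 12, 14.8 and 10.7 FPKM in the control libraries. Resistant 17 and 28 were above all controls and resistant 18 lay among them, with log2 differences of 1.02 in pool 17, -0.13 in pool 18 and 1.02 in pool 28. TSPAN3, a tetraspanin, had 7.81, 9.51 and 13.4 FPKM in the resistant libraries, against 8.73, 10.3 and 7.95 FPKM in the control libraries. Only resistant 28 was above the controls. CD276, the checkpoint ligand B7-H3 and the first member in gene order, had 6.88, 1.71 and 4.41 FPKM in the resistant libraries, against 5.06, 3.57 and 4.2 FPKM in the control libraries. Resistant 17 was its highest library and resistant 18 its lowest, and in pool 28 the libraries were nearly equal (0.06). CHRNA5, a nicotinic receptor subunit, was low in all libraries and differed by -0.24 in pool 28.

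Members of protein turnover and the remaining genes had 5 tested, all above 0 in pool 28 and 4 over 0.5, with a median of 0.63. UBL7, a ubiquitin-like protein, had 36.3, 54.6 and 69.2 FPKM in the resistant libraries, against 40.9, 46.9 and 40.1 FPKM in the control libraries. ZFAND6, a ubiquitin-binding zinc finger protein, had 37.5, 65 and 44.4 FPKM in the resistant libraries, against 31, 34 and 25.8 FPKM in the control libraries. BTBD1, an adaptor of cullin ubiquitin ligases, had 34.2, 47.7 and 45.4 FPKM in the resistant libraries, against 31.2, 33.4 and 32.7 FPKM in the control libraries. In ZFAND6 and BTBD1 all resistant libraries exceeded all controls and resistant 18 was the highest, whereas UBL7 was highest in resistant 28 and its groups overlapped. UBE2Q2, a ubiquitin-conjugating enzyme, and WDR73, a WD-repeat protein, differed by 0.63 and 0.52 in pool 28.

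**Figure D3:**
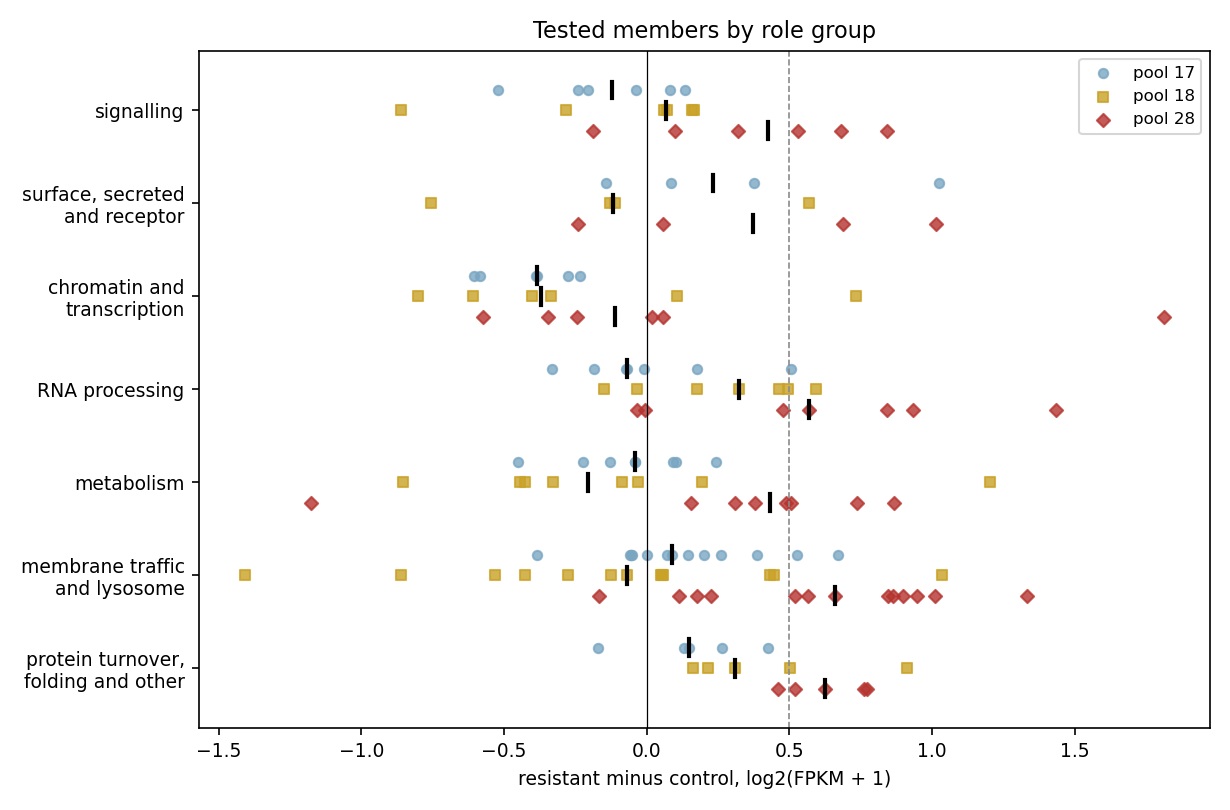
Differences between resistant and control libraries on the log2(FPKM + 1) scale (horizontal axis) for the 49 tested members by role group (rows), with 1 marker shape and colour per pool, black bars for medians and a dashed line at 0.5. The pool 28 median is 0.66 in membrane traffic and lysosome and -0.11 in chromatin and transcription.

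The plot by role group shows the pool 28 median to the right of the medians of pools 17 and 18 in each of the 7 groups, and the chromatin genes on both sides of 0. The pool 28 difference was the largest of the 3 pools in 36 of 49 members, where this held for 28.5% of all tested genes. A difference over 0.5 in pool 28 with both other pools within 0.5 of 0 was seen in 17 members, CTSH, TMED3, RPP25, SEC11A and AKAP13 among them, where it was seen in 5.06% of all tested genes. Both counts rest on the pool 28 values that chose the genes. Against the mean of the 3 controls, 21 members were over 0.5 in resistant 28, where 10.3% of all tested genes were. SEC11A, for which control 28 was the lowest control, had 0.49 on that measure.

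Over all 3 pools together, 0 members passed the test of resistant against control. A total of 14 members were higher in all 3 pools, where 18.9% of all tested genes were, and 6 were lower in all 3 (ARID3B, CSK, SIN3A, IREB2, TM6SF1 and ZNF592), where 18.7% were. Every resistant library exceeded every control in 10 members (10.1% of all tested genes) and lay below every control in 4 (11.1% of all tested genes). In limma over the 6 libraries, 4 of 11307 genes (0.0354%) passed a Benjamini-Hochberg adjusted p of 0.05, and 0 of 49 members did. Pool 28 is part of this fit, so its values describe the members and do not support the pattern that chose them. At an unadjusted p under 0.05, 7 members were higher (5.99% of all tested genes) and 3 lower (7.14%). The smallest adjusted p of a member in limma was 0.209, for SCAMP5 (log2 difference 0.86, SE 0.22, higher in 3 of 3 pools), and IREB2 had 0.314 (-0.83, SE 0.30, lower in 3 of 3). Without resistant 17, resistant 18 or both libraries of pool 18, 8, 13 and 18 genes passed in limma, and with array weights 301 did, with 0 members in each. The array weights were 0.162 for resistant 18 and 1.03 to 1.93 for the other libraries, so resistant 18 counted little in that fit. The count of 10 members at an unadjusted p under 0.05 (13.1% of all tested genes) was 6 with the pool number as a block (12.9% of all tested genes in that fit), 1 without control 28 (6.45%), 6 without control 17 (12.8%) and 4 without both libraries of pool 28 (4.82%).

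Pools 17 and 18, whose differences were not the reason for listing the genes, were also fitted alone. The genes were listed with earlier results of these data known, so this fit is a description too. In limma over these 4 libraries, 4 of 11307 genes (0.0354%) passed and 0 of 49 members did, the lowest adjusted p of a member being 0.923. The median fitted log2 difference of the members was -0.00, with 24 of 49 above 0, where 5929 of 11307 tested genes were. At an unadjusted p under 0.05, 1 member was higher (SCAMP5, 1.81% of all tested genes) and 3 were lower (CSK, TM6SF1 and ZNF592, 3.01% of all tested genes). With the pool number as a block 19 genes passed in limma, again with 0 members. Leaving out 1 of the 4 libraries leaves 1 library in its group, which is then assumed to vary like the pair in the other group. Without resistant 17, 12 members had an unadjusted p under 0.05, where 28.1% of all tested genes did, and 16 genes passed the adjusted threshold in limma. Without control 17 or control 18, 0 members had an unadjusted p under 0.05, where 2.06% and 1.35% of all tested genes did, and 8 and 10 genes passed. Without resistant 18, 10 genes passed.

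Genes elsewhere in the genome that work with the members were examined as well. For 19 members or member pairs, 90 partner genes of the same complex or family were listed, and 87 were tested, 2 of them on chromosome 15. Their pool 28 median was -0.00, with 16 of 87 over 0.5 (18.4%, against 15.7% of all tested genes), and 0 passed limma's adjusted threshold. In 14 of 18 sets the tested member had a higher pool 28 difference than the median of its partners. The median over the sets was 0.48 for the members and -0.04 for the partners. The members were listed for their pool 28 values and the partners were not, so these contrasts follow from the choice of members and are descriptions.

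SEC11A differed by 0.86 in pool 28, whereas the 4 other signal peptidase genes lay between -0.16 (SPCS1) and 0.25 (SEC11C). RPP25 differed by 1.43, and the 10 other tested RNase P and MRP genes lay between -0.15 (POP1) and 0.80 (RPP25L, its paralogue). TMED3 differed by 0.85 and the 6 other TMED genes had a median of -0.04, with TMED9 at 0.75. CTSH differed by 0.95 and 7 other cathepsin and cystatin genes had a median of 0.13, with the inhibitor gene CST3 highest at 1.54 and the inhibitor gene CSTB lowest at -0.71. These 4 members are among those with the largest pool 28 differences, so their place above their partners follows from the choice too. In pool 28 SNUPN differed by 0.94 and its 3 partners had a median of -0.12.

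Other partners had differences of the same sign as the member. IMP3 differed by 0.57, and its partner MPHOSPH10 had 16.4, 15.9 and 16.2 FPKM in the resistant libraries, against 14, 9.05 and 7.22 FPKM in the control libraries, with every resistant library above every control and a pool 28 difference of 1.07. IREB2 differed by -1.18 and its paralogue ACO1 by -0.27. CSK was lower in all 3 pools, as was PAG1, the membrane adaptor that recruits it, with 2.35, 2.99 and 2.7 FPKM in the resistant libraries, against 4.62, 7.59 and 5.43 FPKM in the control libraries. PAG1 did not pass either (limma adjusted p = 0.184, log2 difference -0.88, lower in 3 of 3 pools). By contrast, SIN3A differed by -0.57 in pool 28, and its 10 partners had a median of 0.05 but were spread. They ran from -0.90 for the deacetylase HDAC2, which was lower in all 3 pools, to 0.60 for SAP30. The deacetylase HDAC1 differed by -0.07.

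**Figure D4:**
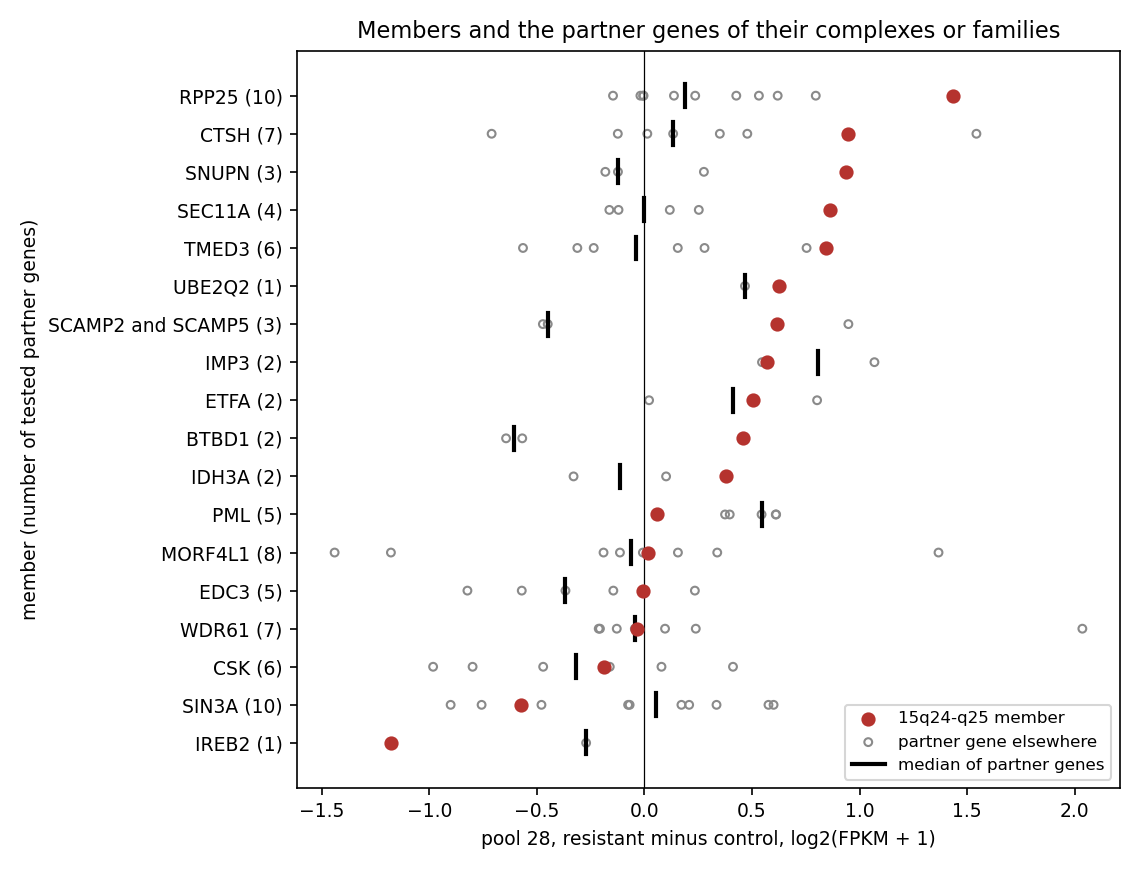
Pool 28 difference between resistant and control libraries on the log2(FPKM + 1) scale (horizontal axis) for members (red points) and the partner genes of their complexes or families (open circles, black bar for their median), 1 row per set with the number of tested partners. The point of SCAMP2 and SCAMP5 is the median of both. The red point is right of the bar in 14 of 18 sets, with members listed for their pool 28 values.

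The members were ordinary genes in level and length. Their mean level over the libraries ran from 1.14 to 539 FPKM with a median of 11.5, against a median of 11.4 over all tested genes. Their longest annotated transcripts had a median length of 3813 bases, against 3321. Over the 49 members, the pool 28 difference had a Pearson r of -0.0035 with log2 transcript length, 0.18 with GC content and 0.19 with log2 mean FPKM. Over 10399 tested genes these values were -0.26, 0.18 and 0.12. The points share the same 2 libraries, and genes are not independent replicates, so the correlations are descriptions.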

How the data were processed

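The 6 deposited tables gave FPKM per gene symbol, as the authors' values per the file headers, with a comma as decimal mark. The submitters' processing notes name the build hg19 and the tools Cufflinks 2.2.1, TopHat2 2.0.4, DESeq2 and HTSeq 0.6.1. The sources used here give neither the annotation nor the strand setting, so reads of overlapping genes cannot be told apart. The tables hold no counts, so no count model or counting interval was computed, and absolute depth is unknown. Relative depth came from the steps of low values: 64.0% to 69.0% of ratios to control 17 were ratios of small whole numbers within 0.02 on the log2 scale.

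The 11307 genes with 1 FPKM or more in 3 or more libraries were tested on log2(FPKM + 1), which understates differences of low genes, with limma 3.58.1 in R 4.3.3 (lmFit, eBayes with trend, two-sided) and Benjamini-Hochberg adjustment over all tested genes at 0.05. The labels do not say that pools were separate cultures from the start, so p-values cover only the spread among the 6 libraries. With 1 library per group and pool, differences within a pool have no test, and a difference over 0.5 was counted. The design text names the pools as pairs, so the pool number was also fitted as a block. Deviations of same-numbered libraries from their group means correlated at 0.148, 0.0892 and -0.0243 in pools 17, 18 and 28.

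GC content and length were those of the longest protein-coding transcript of each symbol in GENCODE v29. They were found for 10399 tested genes (92.0%), including all 49 tested members. Their trends were removed with a loess surface of span 0.5. Gene order and promoters came from RefSeq on GRCh38.p14, with 11072 tested genes (97.9%) placed. Because the authors' build was hg19, coordinates are given only for the printed promoters, on GRCh38.p14. Alternatives were pseudocounts of 0.1 and 5, other filters, other scalings, array weights, marks of 0.3 and 1, and each library left out. The limma step was tested on simulated data. The members, role groups, partner lists and markers were chosen with earlier results of these data known. Members given library by library were the first and last in gene order, the 3 of highest level in each role group, the 3 largest and 3 smallest pool 28 differences, and up to 6 of smallest unadjusted p in each fit.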

Additional observations from a re-analysis of the deposited data

How the results depend on the processing

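Under every alternative tried, 0 members passed limma's adjusted threshold in either fit, and no result changed direction from a called value. In pools 17 and 18, a fit without 1 library rests on the spread of 1 pair of libraries, so a count of 0 there says little. With the same 11307 genes tested, the 4 genes passing over all pools became 301 with array weights, where resistant 18 had the low weight of 0.162. They became 3 to 18 when libraries were left out (8 without resistant 17, 13 without resistant 18, 18 without both libraries of pool 18). With the pool number as a block 3 genes passed, with the block and GC and length trends removed 0 passed in limma (12 members at an unadjusted p under 0.05, where 15.1% of the tested genes were), and the block changed no member's adjusted call. In pools 17 and 18 alone, the 4 genes passing became 19 with the pool block, 0 without a filter on low values, and 8 to 16 when a library was left out (8 without control 17, 10 without control 18, 16 without resistant 17, 10 without resistant 18).

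The member median in pool 28 was 0.37 with a pseudocount of 5, 0.46 against the mean of the 3 controls and 0.45 as a mean over genes, and kept within 1 SD of the control medians under the other 6 alternatives. Members over the mark in pool 28 numbered 17 with a pseudocount of 5 and 5 at a mark of 1, where 4.06% of all tested genes were. In pool 18 the median was -0.061 with trends removed, -0.046 with library medians subtracted, -0.0070 without a filter and -0.017 as a mean. In pool 18 the count was 4 with library medians subtracted or a pseudocount of 5, 13 at a mark of 0.3 and 2 at a mark of 1. In pool 17 the count was 1 with a pseudocount of 5, 7 at a mark of 0.3 and 1 at a mark of 1. The shares of all tested genes were not computed for the other counts here. Those counts therefore do not show how the members compare with all genes.

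The median of the other genes of the stretch in pool 28 was 0.53 with trends removed, over the 25 of 29 genes with a length value. It was 0.79 at a mean FPKM of at least 5, 0.88 and 0.47 with pseudocounts of 0.1 and 5, and 0.59 as a mean. The filter at a mean FPKM of at least 5 leaves out genes too, so these medians are not all over the same genes. Before CD276 it was 0.40 with trends removed, 0.49 at a mean FPKM of at least 5, 0.34 and 0.18 with pseudocounts of 0.1 and 5, and 0.39 over 10 genes. After AKAP13 it was 0.091 at a mean FPKM of at least 5, -0.15 against the mean of the controls and 0.17 over 10 genes. Partner genes had 0.079 at a mean FPKM of at least 5, and windows of 21 genes reached 0.84. With trends removed, an alternative chosen after seeing the data, the highest window of 41 genes had 0.70. The causes of these moves were not tested. With 1 library for each pool and group, the pool 28 pattern has no replicate check.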

Other observations

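Several genes between CD276 and AKAP13 that are not among the 51 had larger pool 28 differences than most members, and they were chosen for mention after their values were seen. ISLR, which encodes a leucine-rich repeat protein, had 1.18, 1.64 and 7.7 FPKM in the resistant libraries, against 2.09, 1.6 and 0.797 FPKM in the control libraries, a pool 28 difference of 2.27. Resistant 28 alone was high. PSMA4, an alpha subunit of the 20S proteasome, had 263, 205 and 280 FPKM in the resistant libraries, against 135, 147 and 115 FPKM in the control libraries, a pool 28 difference of 1.27. BCL2A1, a survival gene of the BCL2 family, had 190, 259 and 209 FPKM in the resistant libraries, against 123, 129 and 113 FPKM in the control libraries, with log2 differences of 0.62 in pool 17, 0.997 in pool 18 and 0.89 in pool 28. All resistant libraries exceeded all controls in BCL2A1, and it did not pass in limma (log2 difference 0.84, adjusted p = 0.184, higher in 3 of 3 pools). With array weights its adjusted p in limma was 0.0439, in a range of 0.0439 to 0.923 over the alternatives. That fit gave resistant 18 a weight of only 0.162, against 1.03 to 1.93 for the other libraries. RASGRF1, a RAS exchange factor, was lower in every pool, with 0.153, 0.241 and 0.431 FPKM in the resistant libraries, against 2.47, 4.25 and 1.48 FPKM in the control libraries and log2 differences of -1.59 in pool 17, -2.08 in pool 18 and -0.79 in pool 28.

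In pool 28 the genes before CD276 had a higher median than those after AKAP13. ANP32A, an acidic nuclear phosphoprotein gene before CD276, had 120, 125 and 157 FPKM in the resistant libraries, against 89.5, 73.1 and 48.4 FPKM in the control libraries, a pool 28 difference of 1.68. ISG20, an interferon-induced exonuclease gene after AKAP13, had 182, 138 and 264 FPKM in the resistant libraries, against 127, 149 and 114 FPKM in the control libraries, a pool 28 difference of 1.21. Both single genes were above the medians of their flanks, which were 0.28 before CD276 and -0.03 after AKAP13.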
